A study of Mus musculus with 6 samples.

Results

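The heat shock protein (HSP) and DNAJ families are the chaperones that fold new proteins, hold misfolded ones in solution and pass them to degradation. Members were taken by gene symbol: every row of the count table whose symbol starts with DNAJA, DNAJB, DNAJC or HSP90, or with HSPA, HSPB, HSPD, HSPE or HSPH followed by a digit. The rule found 77 rows, which carry 75 symbols, among 20323 rows in all. By where their proteins work, 32 rows were placed in the cytosol and nucleus, 13 in the endoplasmic reticulum (ER), 8 in mitochondria and 7 among the small heat shock proteins. A further 12 rows were placed elsewhere or nowhere, 3 were readthrough genes that join a member to its neighbour, and 2 were second rows of a symbol already counted.

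The RNA came from RFB, which the labels call a kidney fibroblast line. Cells of 3 libraries were given CXCL10 on top of TGF-β, and those of the other 3 TGF-β alone, so every group carries TGF-β and no untreated group is analysed here. The labels give the CXCL10 addition as 5 µl, without a concentration. They call the cells mouse, whereas all 20323 rows of the table are human genes and 0 of their identifiers occur in the mouse annotation. The series text also speaks of a SUV39H1 knockdown, which no sample label names. Since nothing states that replicates were separate cultures, p-values measure only the spread between these libraries, which may be technical.

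HSP70 proteins (the HSPA genes) bind exposed hydrophobic stretches and release them in a cycle driven by ATP. J-domain proteins (the DNAJ genes) bring clients to HSP70 and start ATP hydrolysis, and HSP110 proteins (HSPH1, HSPA4) exchange the nucleotide. HSP90 acts later, on partly folded kinases and hormone receptors, while the small heat shock proteins hold unfolded clients without ATP. Each compartment has its own set: HSPA8 and HSP90AB1 in the cytosol, HSPA5 and HSP90B1 in the ER, HSPA9 and the HSPD1 and HSPE1 chaperonin in mitochondria. In fibroblasts that make collagen, the ER set meets a large flow of secreted matrix protein.

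Libraries held 12838106 to 14470051 counts with CXCL10, against 13068015 to 15587409 with TGF-β alone, and 13939 to 14224 rows had a count. A count of 3 corresponded to 0.187 to 0.237 scaled CPM (a gene's share of its library's counts on the CPM scale, with library sizes scaled for composition, the unit of all levels below unless stated), and this floor covers counting error only. Fibroblast marker rows (COL1A1, COL3A1, PDGFRB and others, 10 of 11 with a count in every library) summed to 50611 to 54928 scaled CPM with CXCL10, against 52971 to 60443 with TGF-β alone. Epithelial marker rows summed to 19.1 to 20.6 with CXCL10 and 20.9 to 22.3 with TGF-β alone, with LRP2 and a second AQP1 row at 0 (7 rows, 4 with a count in every library). Endothelial rows (4, of which 2 had a count in every library) summed to 3.02 to 3.15 with CXCL10 and 2.55 to 3.17 with TGF-β alone. Immune rows (4, of which 2 had a count in every library, with CD3E at 0) summed to 37.9 to 44.8 with CXCL10 and 36.4 to 42.1 with TGF-β alone, and nearly all of that was CD68. Replicate 1 of each group stood apart from replicates 2 and 3 in the same direction. On the first principal component, with 48.4% of the variance, the CXCL10 libraries lay at 32.8, 9.78 and 9.67 and the TGF-β-alone libraries at 5.54, -28.3 and -29.5, so replicate 1 with TGF-β alone lay closest to the CXCL10 libraries. What set replicate 1 apart was not tested, and the members' values are therefore given library by library.

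Of the 77 rows, 64 had enough counts to be tested. Without pairing, 0 of the 64 passed an adjusted p of 0.05 in either direction (edgeR's quasi-likelihood test, Benjamini-Hochberg adjustment), as did 0% of all 11970 genes tested in either direction. At an unadjusted p under 0.05 there were 20 of the 64 members and 2449 of all 11970 genes. Limma-voom also called 0 members, as it called 0 of all 11970 genes. DESeq2 called HSP90AB1 higher (adjusted p = 0.0385) and HSPB1 lower (adjusted p = 0.0139), where it called 1.32% of all genes higher and 1.3% lower. With the replicate number as a block, 15 members rose and 5 fell, which is 23.4% and 7.81% of those tested, against 9.71% and 8.04% of all genes tested. "Rose" and "fell" below refer to that paired test, whose adjusted p is called the paired adjusted p; the adjusted p without the block is the unpaired adjusted p. The pairing comes from the data and not from the labels, and it rests mainly on replicate 1. The members were not matched to all genes for expression level, so shares given against all genes here and below are not like for like.

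Over the 64 tested members the median paired change was 0.06 on the log2 scale, beside -0.01 for all tested genes, and 39 of the 64 changes were positive. The groups did not overlap for 9 members that were higher with CXCL10 and for 8 that were lower, or 14.1% and 12.5% of them, against 11.1% and 11.2% of all genes. All rows together took 1.101%, 1.03% and 1.03% of the counts with CXCL10, against 1.03%, 0.960% and 0.944% with TGF-β alone. In bulk RNA, fewer cells of a type and less RNA per cell cannot be told apart, which holds for every level here.

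Single libraries moved these counts. Without replicate 1 of the TGF-β-alone group, and with no block, 15 members were called higher and 6 lower, against 10.7% and 8.61% of all genes. In the paired test 16 were called higher and 7 lower without replicate 1 of both groups (12.7% and 10.9% of all genes). Without replicate 2 the test called 8 higher and 3 lower (5.66% and 4.67% of all genes), and without replicate 3 it called 5 higher and 2 lower (4.46% and 3.02% of all genes). Called without replicate 3 were HSPA8, HSP90AB1, HSPH1, DNAJB9 and the second DNAJB11 row, higher, and HSPB1 and HSPA12A, lower. Other tools and settings with the block also moved the counts. DESeq2 called 10 higher and 3 lower (5.73% and 3.8% of all genes), and limma on FPKM called 4 higher and 2 lower (2.82% and 2.94%). Scaling by library totals gave 12 and 6 (7.33% and 11.4% of all genes), RLE size factors 15 and 5 (10.2% and 8.09%) and no low-count filter 17 and 6 (8.86% and 6.66%). Of these 9 fits with the block, HSPA8, HSP90AB1, DNAJB9 and HSPB1 passed in all 9, and HSPH1 and the second DNAJB11 row in 8. Below, the number of these fits that called a member is given beside each of the others that rose or fell.

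The cytosolic set was summed to 4111, 3488 and 3426 scaled CPM with CXCL10, against 3442, 2654 and 2642 with TGF-β alone. Each CXCL10 library lay above the TGF-β-alone library of the same number, while replicate 1 of TGF-β alone lay above replicate 3 with CXCL10. The ER set was summed to 5675, 5408 and 5460 with CXCL10, against 5406, 4883 and 4817 with TGF-β alone, and its groups did not overlap, by a margin of a few units. The mitochondrial set was summed to 747, 723 and 726 with CXCL10 and 727, 765 and 719 with TGF-β alone, with overlapping groups. The small heat shock set was summed to 411, 574 and 542 with CXCL10, against 584, 786 and 826 with TGF-β alone. Every CXCL10 library was thus below every TGF-β-alone library for the small set.

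**Figure D1:**
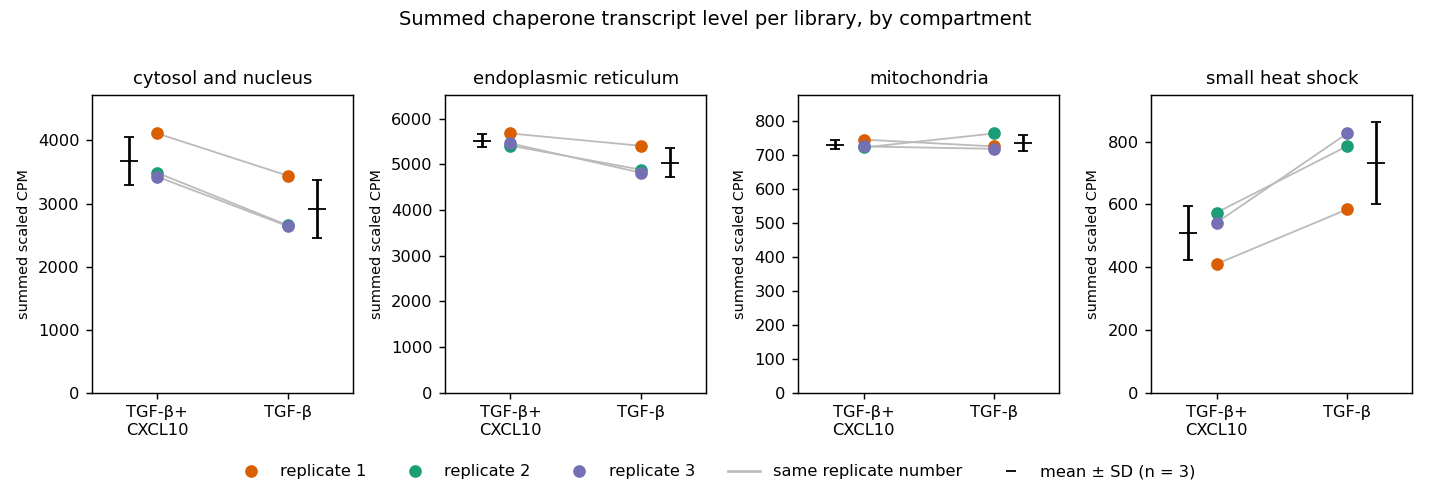
Summed expression of the 4 chaperone sets (y axes, scaled CPM, starting at 0) in each library, with the TGF-β with CXCL10 group left of the TGF-β-alone group grey lines joining the same replicate number and black bars for the mean ± SD (n = 3). The small heat shock set lies between 411 and 574 with CXCL10 and between 584 and 826 with TGF-β alone, while the mitochondrial set lies between 719 and 765 throughout.

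A few genes carried each sum. Averaged over the libraries, HSPA8 made up 27.7% of the cytosolic sum, HSP90AB1 20.7% and HSP90AA1 10.7%. HSPA5 made up 48.7% and HSP90B1 32.2% of the ER sum, HSPA9 made up 54.3% and HSPD1 23.8% of the mitochondrial sum, and HSPB1 made up 89.5% of the small heat shock sum. Per transcript length, in the authors' deposited FPKM, 7 members averaged at least 100 and 39 at least 10. HSPA5 had 900 ± 21.1 FPKM with CXCL10 and 842 ± 51.6 with TGF-β alone (SD, n = 3 each). HSPB1 had 564 ± 112 FPKM with CXCL10 and 871 ± 181 with TGF-β alone. HSP90B1 had 622 ± 15.6 FPKM with CXCL10 and 601 ± 21.6 with TGF-β alone. HSPA5 therefore ranked highest by mean with CXCL10 and HSPB1 with TGF-β alone, where these 2 lay within the SD of HSPB1. With CXCL10, HSPB1 and HSP90B1 also lay within the SD of HSPB1. HSPA8 had 491 ± 98.2 FPKM with CXCL10 and 315 ± 105 with TGF-β alone, and HSP90AB1 had 302 ± 34.5 with CXCL10 and 228 ± 47.1 with TGF-β alone. HSPA9 had 146 ± 7.41 FPKM with CXCL10 and 162 ± 13.9 with TGF-β alone, and HSP90AA1 had 118 ± 9.91 with CXCL10 and 102 ± 9.87 with TGF-β alone. HSPA8 ranked above HSP90AB1 in each group, but with TGF-β alone the distance was smaller than the SD of HSPA8.

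In the cytosol and nucleus, 27 of 32 rows were tested, of which 8 rose, 2 fell and 17 were not called. Of those tested this is 29.6% higher and 7.41% lower, against 9.71% and 8.04% of all genes, so the share that fell was near the background. The median paired change was 0.08 on the log2 scale. Those that rose were both cytosolic HSP90 genes, the constitutive HSP70 gene HSPA8, the HSP110 genes HSPH1 and HSPA4 and the J-domain genes DNAJA1, DNAJB4 and DNAJC2. Genes known to be induced by heat were found on both sides of the threshold: HSP90AA1, HSPH1 and DNAJA1 rose, while HSPA1A, HSPA1B and DNAJB1 were not called. Those that fell were DNAJB2 and HSPA12A. In the TGF-β-alone group, replicate 1 lay above the mean of replicates 2 and 3 by a median of 0.12 on the log2 scale over this set, the same side as the CXCL10 libraries. Without replicate 1 of both groups, the paired changes of the 8 stayed positive, from 0.20 for HSPA4 to 0.82 for HSPA8. Those of the 2 that fell stayed negative, while DNAJC2 no longer passed (adjusted p = 0.0745, edgeR). These genes were picked by the paired test and each had the same direction within every replicate number, so the signs could not turn. What made replicate 1 differ was not tested.

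HSPA8, which folds newly made proteins and strips clathrin from vesicles, had 1381, 1003 and 980 scaled CPM with CXCL10, against 986, 575 and 548 with TGF-β alone. The groups overlap, because replicate 1 of TGF-β alone lies just above replicate 3 with CXCL10, whereas within each replicate number CXCL10 was higher. Its means were 1121 ± 226 with CXCL10 and 703 ± 245 with TGF-β alone (SD, n = 3 each). The paired change was 0.71 on the log2 scale (SE 0.06, 1.63-fold, paired adjusted p = 9.87e-06, unpaired adjusted p = 0.161, edgeR). By replicate number the difference in log2 CPM was 0.49, 0.80 and 0.84. Replicate 1 exceeded the mean of the other replicates by 0.48 in log2 CPM with CXCL10 and by 0.81 with TGF-β alone.

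HSP90AB1, the constitutive cytosolic HSP90, had 886, 756 and 712 scaled CPM with CXCL10, against 724, 487 and 517 with TGF-β alone. Replicate 1 of TGF-β alone again lies above replicate 3 with CXCL10, so the groups overlap. Its paired change was 0.46 (SE 0.06, 1.38-fold, paired adjusted p = 0.000138, unpaired adjusted p = 0.161). HSP90AA1, its stress-inducible partner, had 424, 357 and 370 with CXCL10, against 361, 312 and 291 with TGF-β alone. The overlap there is a few units wide, and the paired change was 0.26 (SE 0.05, paired adjusted p = 0.00261, unpaired adjusted p = 0.188). It was called in 7 of the 9 fits.

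The HSP110 genes HSPH1 and HSPA4 kept their groups apart. HSPH1 had 128, 95.5 and 95.9 scaled CPM with CXCL10, against 94.8, 74.2 and 85.4 with TGF-β alone. Its lowest CXCL10 library was less than 1 unit above the highest of the other group, and its paired change was 0.32 (SE 0.06, paired adjusted p = 0.00285, unpaired adjusted p = 0.202). HSPA4 had 165, 153 and 153 with CXCL10, against 145, 133 and 134 with TGF-β alone. All libraries with CXCL10 were above all others, and the paired change was 0.19 (SE 0.05, paired adjusted p = 0.0159, unpaired adjusted p = 0.181). HSPA4 was called in 5 of the 9 fits and not in DESeq2 with the block (adjusted p = 0.0661).

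Among the J-domain genes of this set, DNAJA1, a general partner of HSPA8, had 152, 135 and 125 scaled CPM with CXCL10, against 140, 103 and 99.0 with TGF-β alone. Replicate 1 of TGF-β alone lies above both lower CXCL10 libraries, and the paired change was 0.28 (SE 0.06, paired adjusted p = 0.00572, unpaired adjusted p = 0.273, 6 of the 9 fits). DNAJB4, a partner of HSP70 related to DNAJB1, had 40.8, 39.1 and 41.1 with CXCL10, against 33.1, 33.6 and 33.2 with TGF-β alone. Its replicate 1 libraries did not stand apart, the groups did not overlap, and the paired change was 0.27 (SE 0.08, paired adjusted p = 0.0269, unpaired adjusted p = 0.161). DNAJB4 was called in 4 of the 9 fits and lost in DESeq2 with the block (adjusted p = 0.148). DNAJC2, which works with HSP70 at the ribosome, had 32.9, 28.5 and 29.0 with CXCL10, against 24.5, 24.4 and 23.3 with TGF-β alone. The groups did not overlap either, with a paired change of 0.32 (SE 0.09, paired adjusted p = 0.0251, unpaired adjusted p = 0.161). DNAJC2 too was called in 4 of the 9 fits and lost in DESeq2 with the block (adjusted p = 0.141).

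DNAJB2, which steers clients toward the proteasome, had 16.5, 22.3 and 19.9 scaled CPM with CXCL10, against 20.1, 32.3 and 30.8 with TGF-β alone. Replicate 1 was the lowest library of each group and the groups overlap. DNAJB2 fell by 0.49 on the log2 scale (SE 0.10, paired adjusted p = 0.0044, unpaired adjusted p = 0.185, 7 of the 9 fits). HSPA12A, a distant relative of HSP70, had 25.2, 26.7 and 28.3 with CXCL10, against 32.5, 36.7 and 35.4 with TGF-β alone. Its groups did not overlap, and it fell by 0.38 (SE 0.08, paired adjusted p = 0.00695, unpaired adjusted p = 0.161, 7 of the 9 fits). On FPKM with the block limma gave -0.24 for HSPA12A (adjusted p = 0.325).

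The inducible HSP70 genes differed by less than the spread between libraries. HSPA1A had 110, 120 and 118 scaled CPM with CXCL10, against 116, 104 and 125 with TGF-β alone, a paired change of 0.01 (SE 0.06, paired adjusted p = 0.924) whose sign turned with scaling by library totals. HSPA1B had 66.7, 63.9 and 57.0 with CXCL10, against 64.2, 61.3 and 51.9 with TGF-β alone, a paired change of 0.08 (SE 0.06, paired adjusted p = 0.426). The 2 genes are near-identical copies, so how their reads were divided is uncertain. DNAJB1, the J-domain partner of inducible HSP70, had 91.1, 97.2 and 96.9 with CXCL10, against 97.97, 105 and 106 with TGF-β alone. All its CXCL10 libraries were lower, but the paired change of -0.12 (SE 0.05, paired adjusted p = 0.155) did not pass.

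The other cytosolic members that were tested and not called had paired changes between -0.82 for HSPA12B and 0.31 for DNAJC24. DNAJB6, which keeps proteins from aggregating, was higher in each CXCL10 library without overlap (0.15, paired adjusted p = 0.0696), as was DNAJC24, which acts in diphthamide synthesis (0.31, paired adjusted p = 0.168). With the block, DNAJB6 was called higher when no low-count filter was used and when replicate 1 of both groups was left out. DNAJA4 (-0.65, paired adjusted p = 0.164) and DNAJC21 (-0.18, paired adjusted p = 0.161), which acts in ribosome biogenesis, were lower without overlap. HSPA2, an HSP70 gene best known from the testis, had a paired change of -0.02 (paired adjusted p = 0.845). Below the filter, HSPA6, another inducible HSP70 gene, had 5, 3 and 5 counts with CXCL10 and 0, 3 and 2 with TGF-β alone. HSPA4L had 6, 0 and 0 counts with CXCL10 and 5, 7 and 7 with TGF-β alone.

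**Figure D2:**
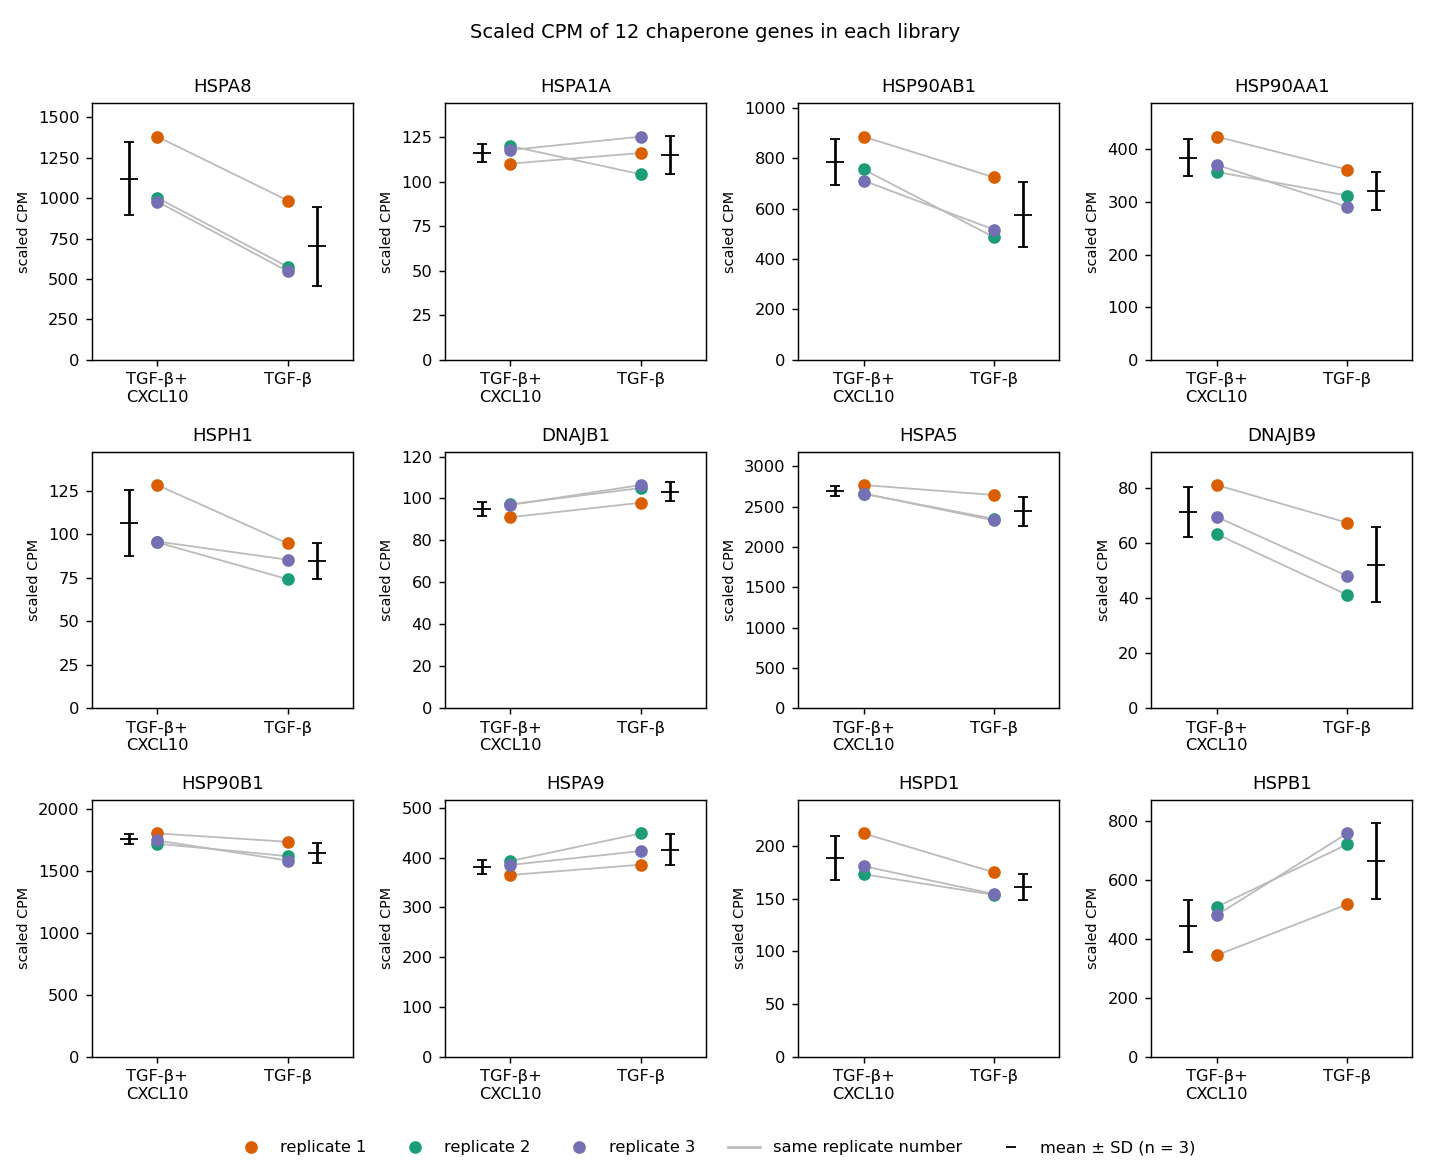
Scaled CPM (y axes, each starting at 0) of chaperone genes described in the text, in each library, with the TGF-β with CXCL10 group left of the TGF-β-alone group grey lines joining the same replicate number and black bars for the mean ± SD (n = 3). For HSPA8 the line of every replicate number is higher at its CXCL10 end, although replicate 1 of TGF-β alone (986) lies above replicate 3 with CXCL10 (980).

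In the ER, all 13 members were tested, of which 5 rose, 0 fell and 8 were not called, with a median paired change of 0.09. The share that rose was 38.5%, against 9.71% of all genes. That background was not matched for level: by mean FPKM the ER members lay between percentile 30.3 (DNAJC18) and 99.6 (HSPA5) of all tested genes. Those that rose were HSPA5, the HSP70 of the ER lumen, and the J-domain genes DNAJB9, DNAJB11, DNAJC3 and DNAJC10. In the TGF-β-alone group, replicate 1 lay above replicates 2 and 3 by a median of 0.12 in log2 CPM over this set. Without replicate 1 of both groups, the paired changes of the 5 stayed positive, from 0.19 for HSPA5 to 0.58 for DNAJB9. The 5 were picked by the paired test and each was higher with CXCL10 within every replicate number, so the signs could not turn. What made replicate 1 differ was not tested.

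HSPA5 had 2768, 2660 and 2662 scaled CPM with CXCL10, against 2643, 2348 and 2328 with TGF-β alone. The CXCL10 libraries were all higher, the nearest pair being less than 1% apart, and the paired change was 0.15 (SE 0.04, paired adjusted p = 0.0259, unpaired adjusted p = 0.222). HSPA5 was called in 5 of the 9 fits. HSP90B1, the HSP90 of the ER, had 1800, 1717 and 1743 with CXCL10, against 1732, 1617 and 1581 with TGF-β alone. Its groups overlap and the paired change of 0.09 (SE 0.04, paired adjusted p = 0.133) did not pass. HSP90B1 was called higher in 1 of the 9 fits, the one without replicate 1.

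DNAJB9, which helps clear misfolded ER proteins and restrains the stress sensor IRE1, had 80.9, 63.1 and 69.4 scaled CPM with CXCL10, against 67.3, 41.1 and 47.9 with TGF-β alone. Replicate 1 of TGF-β alone lies above 1 CXCL10 library. Its paired change of 0.47 was the largest among the 13 ER members (SE 0.08, 1.38-fold, paired adjusted p = 0.000936, unpaired adjusted p = 0.188). DNAJB11, a partner of HSPA5 for newly made secretory proteins, had 164, 152 and 145 with CXCL10, against 156, 117 and 110 with TGF-β alone. The groups overlap through replicate 1, and the paired change was 0.28 (SE 0.06, paired adjusted p = 0.00944, unpaired adjusted p = 0.252, 6 of the 9 fits).

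DNAJC3, which restrains the stress kinase PERK and assists HSPA5, had 161, 138 and 145 scaled CPM with CXCL10, against 142, 118 and 117 with TGF-β alone. Only replicate 1 of TGF-β alone reaches into the CXCL10 range, and the paired change was 0.24 (SE 0.05, paired adjusted p = 0.00533, unpaired adjusted p = 0.198, 7 of the 9 fits). DNAJC10, which reduces disulfide bonds of proteins bound for degradation, had 318, 307 and 310 with CXCL10, against 294, 263 and 279 with TGF-β alone. Its groups did not overlap, and the paired change was 0.16 (SE 0.05, paired adjusted p = 0.0308, unpaired adjusted p = 0.2). DNAJC10 was called in 4 of the 9 fits, and limma on FPKM with the block gave 0.046 (adjusted p = 0.727). The other ER members had paired changes between -0.23 for DNAJC18 and 0.12 for DNAJC16. For DNAJC18 the direction depends on the unit, since limma on the deposited FPKM with the block gave 0.41, and its counts per FPKM differed up to 2.22-fold between libraries.

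In mitochondria, all 8 members were tested, of which 1 rose, 0 fell and 7 were not called, with a median paired change of -0.01. The share that rose was 12.5%, near the 9.71% of all genes. HSPD1, the chaperonin barrel of the matrix, had 212, 173 and 181 scaled CPM with CXCL10, against 175, 154 and 155 with TGF-β alone. Replicate 1 of TGF-β alone lies between the CXCL10 libraries, and the paired change was 0.23 (SE 0.05, paired adjusted p = 0.00628, unpaired adjusted p = 0.202, 7 of the 9 fits). HSPE1, the lid of the same barrel, had 12.2, 10.4 and 10.04 with CXCL10 and 13.9, 9.53 and 5.56 with TGF-β alone. Its spread with TGF-β alone was wide, and the paired change of 0.22 (SE 0.18, paired adjusted p = 0.453) did not pass.

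HSPA9, the HSP70 that pulls proteins into the matrix, had 365, 393 and 386 scaled CPM with CXCL10, against 386, 449 and 413 with TGF-β alone. The groups overlap and the paired change was -0.12 (SE 0.05, paired adjusted p = 0.0879). HSPA9 was called lower in 2 of the 9 fits, with library totals and without replicate 1. DNAJA3, a J-domain partner of HSPA9, had 49.9, 45.4 and 50.1 with CXCL10 and 48.5, 49.3 and 44.7 with TGF-β alone, a change of 0.03 (paired adjusted p = 0.849) that became negative with scaling by library totals. DNAJC19, which belongs to the import motor, had 9.49, 10.04 and 8.17 with CXCL10 and 11.3, 9.28 and 8.34 with TGF-β alone, a change of -0.06 (paired adjusted p = 0.835). The remaining members DNAJC11, DNAJC15 and DNAJC30 had changes of 0.09, -0.06 and -0.23. DNAJC30 was lower in each CXCL10 library without overlap but did not pass (paired adjusted p = 0.273).

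Of the 7 small heat shock rows, 5 were tested, of which 0 rose, 2 fell and 3 were not called, with a median paired change of -0.58. The share that fell was 40% of 5 genes, against 8.04% of all genes. On so few genes this share is imprecise and cannot be read as a trait of the set. HSPB1, a holding chaperone that also binds actin, had 344, 509 and 481 scaled CPM with CXCL10, against 517, 721 and 759 with TGF-β alone. The highest CXCL10 library was just below the lowest TGF-β-alone library, and replicate 1 was the lowest of each group. Its means were 445 ± 87.9 with CXCL10 and 666 ± 130 with TGF-β alone (SD, n = 3 each). HSPB1 fell by 0.58 on the log2 scale (SE 0.05, 0.67-fold, paired adjusted p = 9.56e-06, unpaired adjusted p = 0.161, edgeR). By replicate number the difference in log2 CPM was -0.59, -0.50 and -0.66, and replicate 1 lay below the other replicates by 0.52 in each group (-0.52 with CXCL10 and -0.52 with TGF-β alone).

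HSPB7, known from heart and vessel muscle, was scarce, with 0.562, 1.42 and 1.80 scaled CPM with CXCL10, against 1.20, 3.74 and 4.51 with TGF-β alone. Replicate 1 was the lowest of each group and the groups overlap. HSPB7 fell by 1.29 (SE 0.34, paired adjusted p = 0.0199, unpaired adjusted p = 0.216), and replicate 1 of TGF-β alone differed from replicates 2 and 3 by -1.66 in log2 CPM, a larger gap than the one between the groups. HSPB7 was called in 5 of the 9 fits, and lost in DESeq2 with the block (adjusted p = 0.0769) and in limma on FPKM with the block (-0.55, adjusted p = 0.130). HSPB6, a muscle-enriched member, had 11.1, 11.8 and 10.4 with CXCL10, against 11.4, 13.8 and 13.2 with TGF-β alone, a change of -0.20 (paired adjusted p = 0.325). HSPB8, which works with BAG3 in chaperone-assisted autophagy, had 54.1, 51.3 and 49.0 with CXCL10 and 54.2, 45.5 and 48.5 with TGF-β alone, a change of 0.06 (paired adjusted p = 0.623). The groups overlap for HSPB6 and HSPB8, so the lower sum of the small set was mainly that of HSPB1.

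HSPB2 was near the floor (-1.04, SE 0.71, paired adjusted p = 0.352). HSPB3 had 0 counts in every library and HSPB9 had 1 count in a single CXCL10 library. HSPB11 carries the family's symbol but is a subunit of the transport particles of cilia, and it was placed outside the set. It had 7.24, 7.27 and 8.09 scaled CPM with CXCL10 and 8.80, 8.03 and 10.3 with TGF-β alone, with overlapping groups and a change of -0.26 (paired adjusted p = 0.286).

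**Figure D3:**
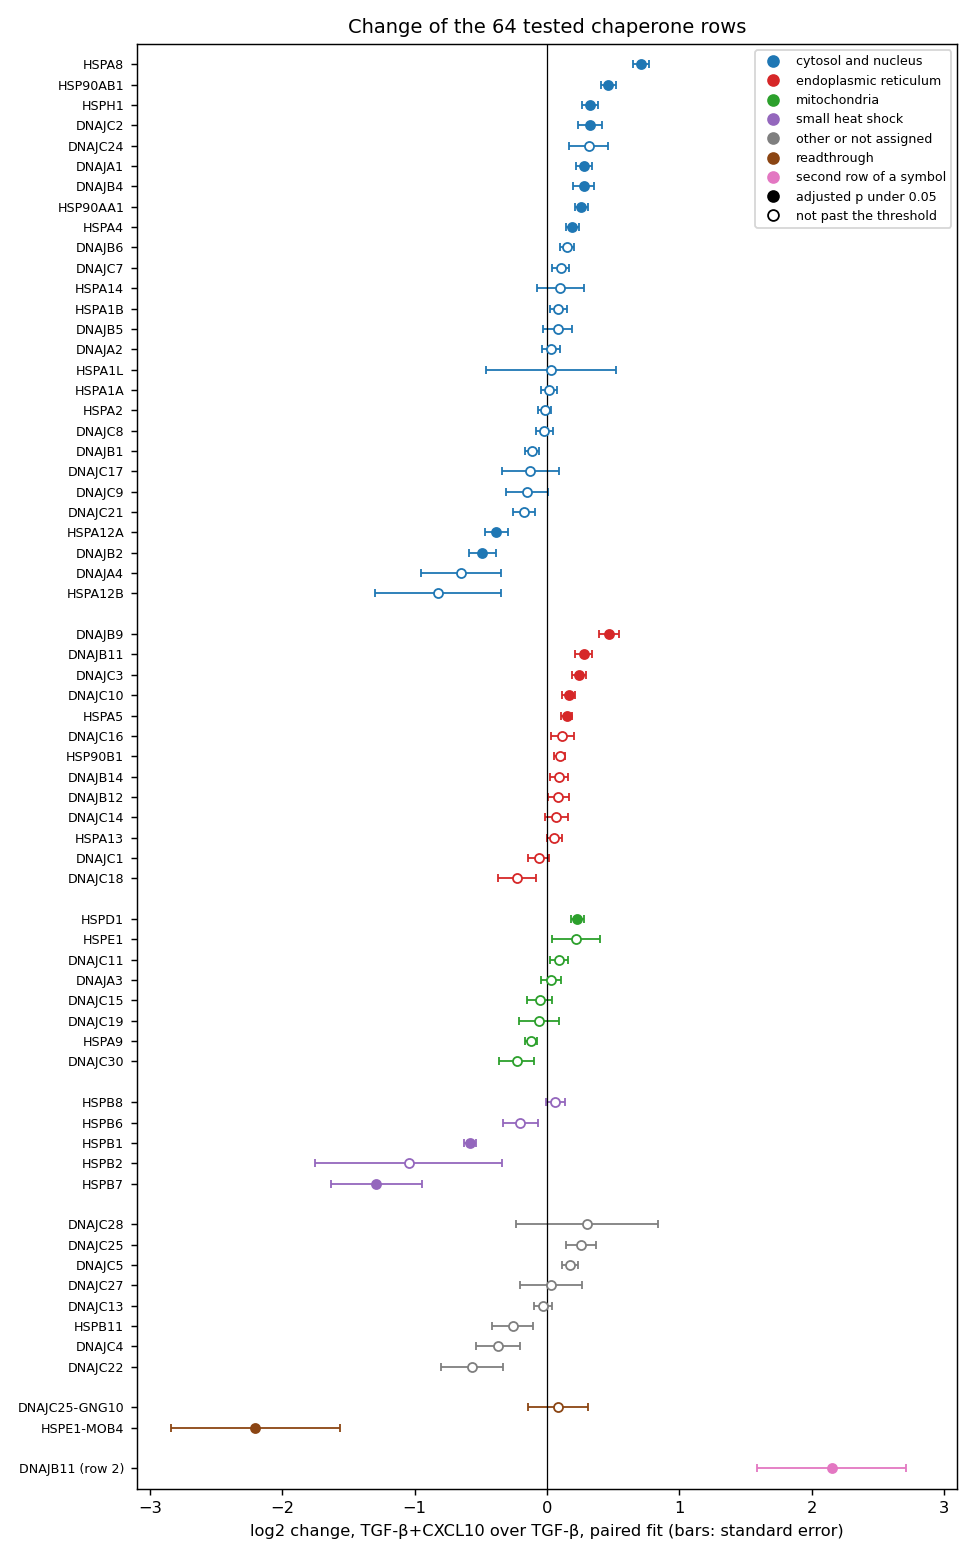
Paired log2 change, TGF-β with CXCL10 over TGF-β alone (x axis), with its standard error as bars, for the 64 tested rows, grouped by set and ordered by change (y axis). Filled points passed an adjusted p of 0.05 with the replicate block. Filled points lie right of 0 in the ER (5) and mitochondrial (1) sets, left of 0 in the small heat shock set (2), and on both sides in the cytosolic set (8 right, 2 left).

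Of the 8 tested members placed outside these sets, 0 rose and 0 fell, against 9.71% and 8.04% of all genes. On so few genes this cannot be told from the background. DNAJC5, the cysteine string protein of secretory vesicles, came nearest (0.17, paired adjusted p = 0.0589), and DNAJC22 was lower in each CXCL10 library without overlap (-0.57, paired adjusted p = 0.114). DNAJC5 was called higher with the block when no low-count filter was used. The readthrough gene HSPE1-MOB4 had 0, 10 and 9 counts with CXCL10, against 31, 20 and 42 with TGF-β alone. Its groups did not overlap and it fell by 2.20 (SE 0.64, paired adjusted p = 0.0291), but it shares sequence with HSPE1 and how reads were divided is uncertain. It was called in 7 of the 8 fits that gave it an adjusted p, with changes between -3.13 without replicate 2 and -1.20 on FPKM. A second row named DNAJB11 had 45, 48 and 35 counts with CXCL10, against 0, 22 and 13 with TGF-β alone. Its groups did not overlap and it rose by 2.15 (SE 0.56, paired adjusted p = 0.0185). It took 1.90%, 2.43% and 1.78% of the counts of both DNAJB11 rows with CXCL10, against 0%, 1.16% and 0.880% with TGF-β alone, so it is likewise uncertain. A second DNAJC14 row, below the filter, had 0, 0 and 0 counts with CXCL10, against 0, 12 and 14 with TGF-β alone.

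The 13 rows below the filter were DNAJB7, DNAJB8, DNAJB13, DNAJC5B, DNAJC5G, DNAJC6, DNAJC12, HSPA4L, HSPA6, HSPB3, HSPB9, HSPB2-C11orf52 and the second DNAJC14 row. Of these, 5 had 0 counts in every library. In the authors' deposited table of comparisons, 0 members had an adjusted p under 0.05, the smallest being 0.0527 for HSP90AB1, and 20 of 77 members had a p-value under 0.05, or 26.0%, against 10.2% of all genes in that table. That table called 112 genes higher and 97 lower at an adjusted p under 0.05. The 10.2% is a share of all 20323 rows, of which 11970 passed the filter used here, whereas 64 of the 77 members did. The 26.0% of members therefore stands against a background with more rows of few or no counts, and the 2 shares are not like for like.

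A ratio of counts of 2 members within a library is free of library scaling, and 6 such ratios, chosen after the values were seen, were compared by an exact two-sided permutation test. With 3 libraries against 3 the smallest p it allows is 0.1, and all 6 ratios had an adjusted p of 0.3, so none passed. HSPA8 over HSPA1A and HSPA1B together was 7.81, 5.45 and 5.60 with CXCL10, against 5.46, 3.48 and 3.09 with TGF-β alone (exact permutation p = 0.2). Each CXCL10 ratio was higher within its replicate number, by 0.51, 0.65 and 0.86 on the log2 scale, though the groups overlap. HSP90AB1 over HSP90AA1 was 2.09, 2.12 and 1.92 with CXCL10, against 2.004, 1.56 and 1.78 with TGF-β alone (exact permutation p = 0.2). DNAJA1 over DNAJB1 was 1.67, 1.39 and 1.29 with CXCL10, against 1.43, 0.977 and 0.930 with TGF-β alone (exact permutation p = 0.3). In both, replicate 1 of TGF-β alone reaches into the CXCL10 range.

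DNAJB9 over HSPA5 was 0.0292, 0.0237 and 0.0261 with CXCL10, against 0.0254, 0.0175 and 0.0206 with TGF-β alone (exact permutation p = 0.2). HSPD1 over HSPA9 was 0.581, 0.441 and 0.470 with CXCL10, against 0.454, 0.343 and 0.374 with TGF-β alone (exact permutation p = 0.2). HSPB1 over HSPB8 was 6.37, 9.92 and 9.81 with CXCL10, against 9.54, 15.8 and 15.6 with TGF-β alone (exact permutation p = 0.3). The mean difference was 0.33 and 0.35 on the log2 scale for the first pair of ratios and -0.64 for HSPB1 over HSPB8. For each of the 6 ratios all 3 replicate numbers gave the same direction, which only describes ratios that were chosen after the values were seen.

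**Figure D4:**
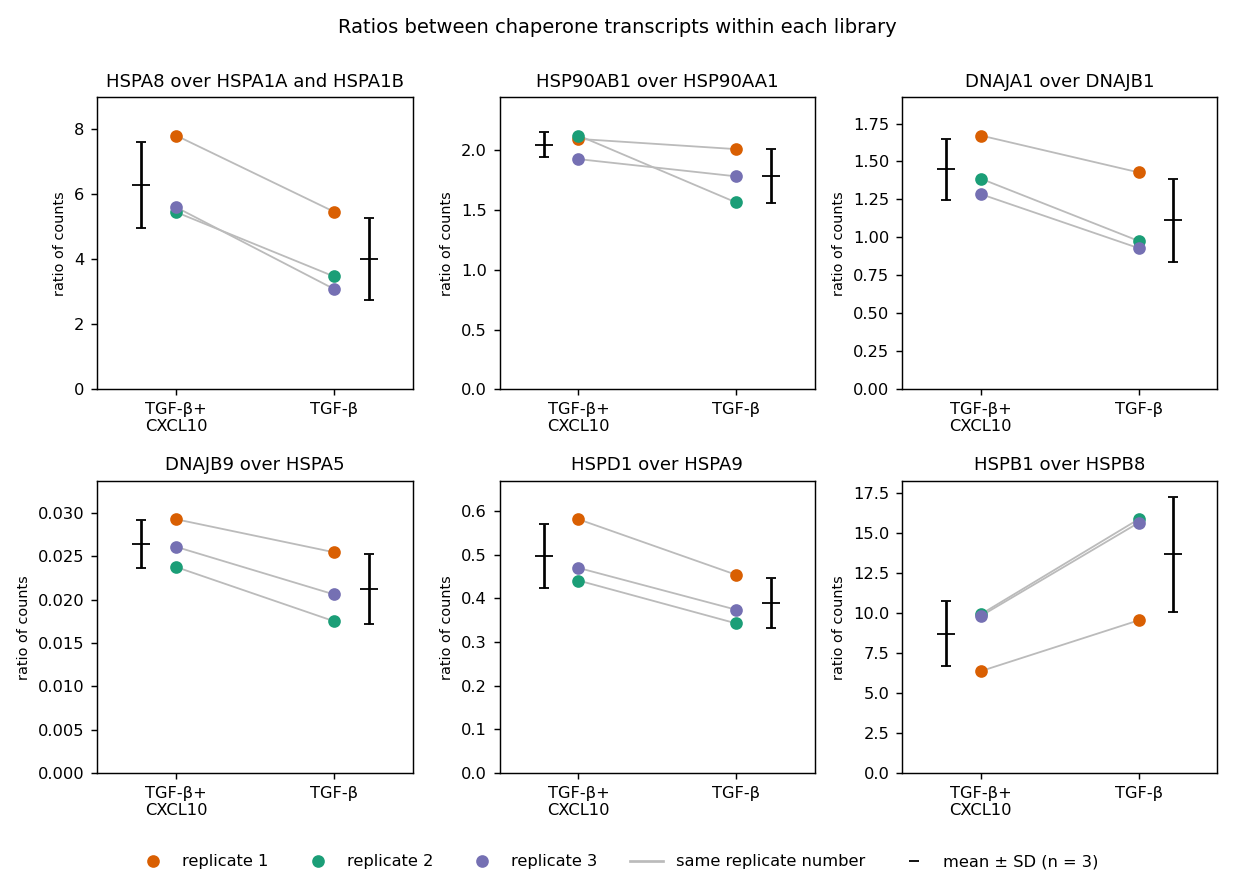
Ratios of counts between 2 chaperone genes within each library (y axes, linear, starting at 0), with the TGF-β with CXCL10 group left of the TGF-β-alone group grey lines joining the same replicate number and black bars for the mean ± SD (n = 3). In all 6 panels the groups overlap, while the 3 lines of a panel slope the same way, as for HSPB1 over HSPB8 (6.37 to 9.92 with CXCL10, 9.54 to 15.8 with TGF-β alone).

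Genes that work with these chaperones were counted from lists. The lists were chosen with earlier results of these data known, so their shares are descriptive and no independent support. Of 15 tested co-chaperones of HSP90, 8 rose and 1 fell, or 53.3% and 6.67%, against 9.71% and 8.04% of all genes. Their median paired change was 0.22, beside -0.01 for all tested genes. STIP1, which joins HSP70 to HSP90, rose by 0.36 (paired adjusted p = 0.000936), NUDC by 0.36 (paired adjusted p = 0.00241) and CDC37, the kinase-loading co-chaperone, by 0.25 (paired adjusted p = 0.0176). FKBP5, a steroid receptor co-chaperone, fell by 0.35 (paired adjusted p = 0.0148). In DESeq2 with the block STIP1, NUDC and CDC37 still passed. AHSA1, FKBP4, CHORDC1, SUGT1 and PPP5C, which also rose in the paired test, and FKBP5 did not (adjusted p = 0.0791 to 0.200). In limma on FPKM with the block only STIP1 and NUDC of this list passed. Replicate 1 of TGF-β alone lay above replicates 2 and 3 by a median of 0.24 in log2 CPM over this list. Without replicate 1 of both groups, the paired changes of the 8 that rose stayed positive, from 0.22 for SUGT1 to 0.43 for STIP1. CHORDC1 and SUGT1 then no longer passed (adjusted p = 0.0787 and 0.0989, edgeR), and FKBP5 stayed negative (-0.31). The genes that rose or fell each had the same direction within every replicate number, so the signs could not turn. What made replicate 1 differ was not tested.

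Of 15 tested co-factors of HSP70, 3 rose and 0 fell, or 20% higher, against 9.71% of all genes, with a median of 0.08. They were HYOU1, the large HSP70 relative of the ER (0.33, paired adjusted p = 0.000661), SGTA, which handles tail-anchored proteins (0.24, paired adjusted p = 0.0260), and GAK, which helps uncoat clathrin vesicles (0.21, paired adjusted p = 0.0384). Next by p came ST13, an HSP70-binding protein, with -0.10 (paired adjusted p = 0.231). In DESeq2 with the block HYOU1 still passed, whereas SGTA (adjusted p = 0.108) and GAK (adjusted p = 0.157) did not. The same held in limma on FPKM with the block, where GAK changed by 0.066. On so few genes the 20% is imprecise. Of 13 tested genes of mitochondrial protein quality control, 1 rose and 2 fell, or 7.69% and 15.4%, against 9.71% and 8.04% of all genes, which is near the background on so few genes. The matrix protease LONP1 fell by 0.36 (paired adjusted p = 0.000227) and GRPEL2, a nucleotide exchange factor of HSPA9, by 0.31 (paired adjusted p = 0.0255), while the protease subunit CLPP rose by 0.27 (paired adjusted p = 0.0472). YME1L1 came next with 0.13 (paired adjusted p = 0.0861). LONP1 also passed in DESeq2 with the block, whereas GRPEL2 (adjusted p = 0.147) and CLPP (adjusted p = 0.226) did not. The same held in limma on FPKM with the block.

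Of the 5 tested heat shock factors and related genes 0 were called, against 9.71% of all genes higher and 8.04% lower. On so few genes this cannot be told from the background. HSF1, the main activator of inducible HSP genes, had a paired change of 0.09 (paired adjusted p = 0.416). Of 3 tested relatives and partners of the small heat shock proteins 0 were called, which on 3 genes cannot be told from that background either. CRYAB, a lens crystallin of the same family, had a paired change of -0.33 (paired adjusted p = 0.381), HSPBAP1 of -1.12 (paired adjusted p = 0.0502) and BAG3, the partner of HSPB8, of 0.12 (paired adjusted p = 0.239). Without the block 0 genes of any of these lists passed.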

How the data were processed

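RNA of 6 libraries was extracted with an RNeasy kit and made into SMARTer mRNA-seq libraries, per the labels' protocols. Builds named in the submitters' processing notes are GRCm38 and mm10. The sources used here do not give the aligner, counter, annotation or use of strand, so overlapping, readthrough and near-identical genes are uncertain. The authors deposited raw counts and FPKM per gene, and a comparison table with log2 fold changes, p-values and adjusted p-values, per the file headers. All columns of per-sample values matched a sample.

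Under R 4.3.3, edgeR 4.0.16 kept 11970 genes (filterByExpr, minimum count 10, minimum total 15) and tested their counts by quasi-likelihood after TMM normalization. P-values were adjusted by Benjamini-Hochberg over these genes, with a threshold of 0.05. Scaled CPM used TMM library sizes, and log2 CPM a prior count of 2. The SE of a change is its size over the square root of F. The main test had no block. A test with the replicate number as a block stands beside it, because libraries with the same number deviated together from the mean of their group, with correlations over all tested genes of 0.330, 0.121 and 0.163, each above the 0.1 required. In genes of at least 5 CPM the correlations were 0.536, 0.228 and 0.202. There libraries numbered 2 and 3 correlated across numbers by 0.262 and 0.237, above their same-number values. These genes therefore do not show which library numbered 2 or 3 belongs with which.

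Alternatives were DESeq2 1.42.0, limma 3.58.1 (voom, and a trend fit on log2 of the deposited FPKM plus 1), RLE size factors, library totals, no filter, and leaving out libraries. The scripts were tested on simulated data. Members, sets and lists were chosen with earlier results of these data known. Values per library are given for members past a threshold and for main members of each compartment, and the up to 4 lowest paired p-values name the genes of the other lists, with HSF1 and CRYAB always included.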

Additional observations from a re-analysis of the deposited data

How the results depend on the processing

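With the replicate block, 15 members were called higher and 5 lower in place of 0 (9.71% and 8.04% of all genes). RLE size factors with the block again gave 15 and 5 (10.2% and 8.09% of all genes). With the block, 10 were higher and 3 lower in DESeq2 (5.73% and 3.8% of all genes), 12 and 6 with library totals (7.33% and 11.4%), 17 and 6 without the low-count filter (8.86% and 6.66%), and 4 and 2 in limma on FPKM (2.82% and 2.94%). DESeq2 without it gave 1 and 1 (1.32% and 1.3% of all genes). Leaving out a TGF-β-alone library gave 0 to 15 higher and 0 to 6 lower (0 to 10.7% and 0 to 8.61% of all genes). Leaving out a CXCL10 library gave 0 and 0, with 0 of all genes called. Leaving out a pair gave 5 to 16 higher and 2 to 7 lower (4.46% to 12.7% and 3.02% to 10.9% of all genes). Without replicate 2 of both groups it was 8 and 3 (5.66% and 4.67% of all genes). HSPA1A had changes of -0.033 and -0.031 with library totals and -0.030 on FPKM. DNAJA3 had -0.014 and -0.015 with library totals and -0.036 on FPKM. With a CXCL10 library, a TGF-β-alone library or a pair left out, HSPA1A ranged over -0.014 to 0.047, -0.057 to 0.084 and -0.083 to 0.072, and DNAJA3 over 0.0067 to 0.075, -0.0033 to 0.057 and -0.031 to 0.10. In the same way DNAJC19 ranged over -0.13 to 0.017, -0.15 to 0.066 and -0.15 to 0.046, and HSPE1 over 0.082 to 0.23, -0.092 to 0.52 and -0.030 to 0.46. For these 4 the cause was not tested. The median change of the members stayed between 0.01 and 0.08 under all alternatives run, and the differences of the 6 ratios, whose alternatives were chosen after seeing the data, kept their sign. Counts per FPKM were constant within 1.1 times for 47 of the 64 tested members and varied by over 1.5 times for 3, which limits values in FPKM. Genes near the floor, such as HSPB2 and HSPB7, have wide errors at this depth.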

Other observations

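Grouped by gene family in place of compartment, 3 of 12 tested HSPA rows rose and 1 fell with CXCL10 in the paired edgeR test (median paired change 0.04 on the log2 scale). Of 3 HSP90 rows 2 rose (median 0.26). Of the 6 HSPB rows, HSPB11 included, 0 rose and 2 fell (median -0.42). HSPD1 and HSPH1 are single rows and rose, and of the 2 HSPE rows the readthrough gene fell. Of the J-domain families, 1 of 4 tested DNAJA rows rose (median 0.03), as did 3 of 25 DNAJC rows (median 0.03). Of 10 DNAJB rows 4 rose and 1 fell (median 0.12), and the 4 include the uncertain second DNAJB11 row. The background was 9.71% of all tested genes higher and 8.04% lower.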
